A study of Homo sapiens with 24 samples.

Results

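The integrated stress response was followed at the transcript level through 10 genes: ATF4, the transcription factor at its centre, DDIT3, which encodes CHOP, and 8 genes named with them as partners, targets or feedback regulators (TRIB3, ASNS, SESN2, PPP1R15A, CEBPB, CEBPG, DDIT4 and VLDLR). They were taken by gene symbol from the table of gene counts, where they make up 10 of 60232 rows. All 10 were also among the 18379 genes with enough counts to be tested. The cells were 22Rv1, an established human prostate carcinoma line. The groups were KB02 (200 µM), KB05 (200 µM) and DMSO vehicle, all labelled 3 h, with 3 libraries in each. Both compounds, given by code name, were present for 1 h and the cells then recovered for 2 h in fresh medium. The columns of the count table, those of DMSO included, carry a 2 h tag in place of 3 h, which was read as the recovery time. No exposure time, recovery time or change of medium was given for DMSO in the sources used. No genetic change is labelled for any group, and the 3 groups share the same line and collection time. The treatments were labelled as biological triplicates, and the p-values weigh differences between groups against the spread between these libraries.

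In the integrated stress response, kinases that sense amino acid shortage, unfolded protein, double-stranded RNA or loss of haem phosphorylate the initiation factor eIF2. General translation slows, while the ATF4 message, which carries upstream open reading frames, is translated more. ATF4 pairs with C/EBP proteins to switch on genes of amino acid supply, growth restraint and feedback, and CHOP, one of its targets, is known for its role in cell death when stress persists. Because much of the control of ATF4 is exerted on translation, its transcript level and its protein level can differ. Transcripts alone were measured here.

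Total counts were 17216760 to 21900548 in KB02, 15506975 to 19617207 in KB05 and 17565188 to 19830340 in DMSO libraries. Levels are given as CPM, counts scaled to a common library size with TMM factors, and a count of 3 corresponds to 0.129 to 0.195 CPM. All 10 of the markers listed for prostate luminal epithelium were tested, of which 2 rose and 6 fell with KB02 and 5 rose and 2 fell with KB05. Their summed level was 2460 to 2620 CPM in KB02, 3170 to 3230 CPM in KB05 and 2700 to 3060 CPM in DMSO. Of 15 markers of immune, endothelial, stromal, basal and neuroendocrine cells, 6 averaged at least 1 CPM. Their summed level was 158 to 178 CPM in KB02, 232 to 257 CPM in KB05 and 264 to 309 CPM in DMSO, of which SYP alone made up to 262 CPM. With KB02, 2 of the 8 markers of other cells with enough counts to test rose (COL1A1 and LYZ) and 2 fell (SYP and CHGA), and with KB05 1 rose (COL1A1) and 1 fell (SYP). Over all genes tested, 22.8% rose and 23.3% fell with KB02, and 18.7% rose and 21.1% fell with KB05. The leukocyte marker PTPRC had 6.84 to 11.9 CPM in KB02, 11.1 to 12.1 CPM in KB05 and 11.5 to 18.6 CPM in DMSO and was not called with either compound. The basal marker KRT5 and the endothelial marker VWF were at 0 in all KB05 and DMSO libraries and had at most 2 counts in KB02 libraries. The share of counts from mitochondrially encoded genes was 14.9% to 16.2% in KB02, 13.5% to 14.8% in KB05 and 16.8% to 18.7% in DMSO. These sums and shares differ between groups in the same libraries as the results below, and their part in those results was not tested. In these bulk samples, fewer cells of a type and less RNA per cell cannot be told apart.

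Nearly the whole group of 10 genes was higher with either compound. With KB02, 9 of the 10 rose and 1, VLDLR, fell, while 46.1% of all genes tested were called in either direction, 22.8% higher and 23.3% lower. With KB05, 9 of the 10 rose and VLDLR was not called, against a background of 39.8% called, 18.7% higher and 21.1% lower. The 10 genes were chosen with earlier results of these data known, so the shares over all genes give scale and no test. A gene is called where edgeR's quasi-likelihood test gives an adjusted p at or under 0.05 over all genes tested. Scaling by library totals alone gave 5733 higher and 3254 lower calls among all genes with KB02, against 4191 and 4279, and left the calls of the 10 genes as they were. The median log2 fold change of the 10 genes was 1.28 with KB02 and 1.08 with KB05, beside medians of 0.00 over all genes for both. Called rises of at least 2-fold were found for 7 of the 10 with KB02 and for 5 with KB05, and none of the 10 fell that far. Among all genes, 6.04% rose and 6.28% fell by at least 2-fold with KB02, and 4.97% rose and 2.7% fell with KB05. The libraries of KB02 and DMSO did not overlap for any of the 10 genes, and those of KB05 and DMSO did not overlap for 9. Among all genes, 26.9% lay wholly higher and 26.6% wholly lower with KB02, and 23.7% and 25.4% with KB05. Both comparisons share the DMSO libraries and are therefore not independent of each other. The summed level of the 10 genes was 2620, 2677 and 2911 CPM in KB02, 2617, 2500 and 2472 CPM in KB05 and 1002, 1039 and 1089 CPM in DMSO.

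**Figure D1:**
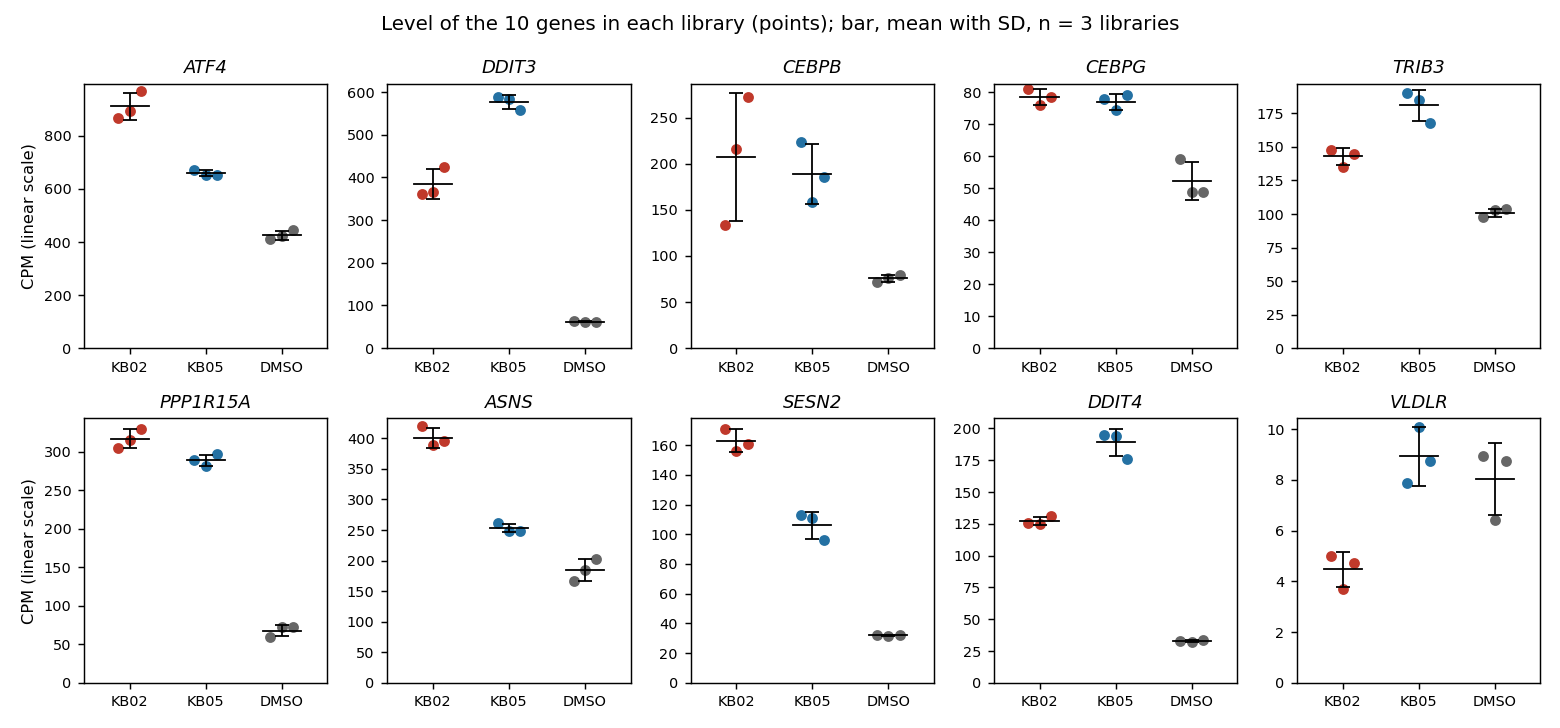
Level of each of the 10 genes in CPM on linear axes that start at 0, one panel a gene, with 1 point a library and a bar at the mean with its SD (n = 3) for KB02, KB05 and DMSO. Every gene except VLDLR has all KB02 and KB05 points above its DMSO points, and CEBPB has the widest spread among KB02 libraries.

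ATF4 itself rose with both compounds and more with KB02. ATF4 (ENSG00000128272.16, chr22:39519695-39522685, plus strand, GRCh38, protein-coding) had 869, 895 and 969 CPM in KB02, 671, 652 and 653 CPM in KB05 and 411, 424 and 445 CPM in DMSO libraries. The 3 groups stood in separate ranges, KB02 highest and DMSO lowest. The log2 fold change was 1.09 ± 0.07 with KB02 (SE; adjusted p = 2.39e-14, edgeR) and 0.63 ± 0.07 with KB05 (adjusted p = 9.97e-09). ATF4 was 0.47 lower on the log2 scale with KB05 than with KB02 (log2 fold change -0.47 ± 0.07, adjusted p = 1.24e-06). ATF4 also took a smaller part of the summed CPM of the 10 genes in treated cells, 33.2% to 33.4% in KB02 and 25.7% to 26.4% in KB05 against 40.8% to 41% in DMSO.

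DDIT3, whose product CHOP is a C/EBP-family factor that dimerizes with other C/EBP proteins, rose most of the 10 and stood in the opposite order to ATF4, KB05 above KB02. DDIT3 (ENSG00000175197.12, chr12:57516588-57521737, minus strand) had 362, 365 and 424 CPM in KB02, 589, 584 and 559 CPM in KB05 and 62.6, 60.2 and 62.3 CPM in DMSO. No library of one group reached the range of another. The log2 fold change was 2.64 ± 0.08 with KB02 (6.22-fold, adjusted p = 1.96e-22) and 3.23 ± 0.08 with KB05 (adjusted p = 1.72e-24), which placed it at rank 213 and rank 98 of the 18379 genes by size of rise. Between the compounds it was 1.51-fold higher with KB05 than with KB02 (log2 fold change 0.59 ± 0.07, adjusted p = 3.54e-08). Its share of the summed CPM of the 10 genes was 13.6% to 14.6% in KB02 and 22.5% to 23.3% in KB05, against 5.72% to 6.25% in DMSO. DDIT3 shares exon bases with MARS1 and MBD6 on the other strand, and reads cannot be told apart between the strands because no source used here gives the strand setting. MBD6 had 42.2 to 45.6 CPM in KB02, 50.6 to 58.7 CPM in KB05 and 30.4 to 33.2 CPM in DMSO, and MARS1 had 217 to 234 CPM in KB02, 175 to 178 CPM in KB05 and 183 to 206 CPM in DMSO.

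Because the 9 genes that rose moved by different amounts, the promoters of all 10 were read for short elements known for stress-responsive factors. RefSeq promoter windows (GRCh38.p14, 250 bases before to 50 after a start, 17 windows for the 10 genes) were searched on both strands for TGATGNAA, a form of the C/EBP-ATF response element, TGACGTCA, the cAMP response element, and TGANTCA, the AP-1 element. TGATGNAA was present in 2 of the 17 windows, for ASNS and CEBPG, and in 3.62% of 35116 windows of all genes. TGACGTCA was present in 1 of the 17, for PPP1R15A, and in 1.85% of all windows. TGANTCA was present in 2 of the 17, both of DDIT3, and in 7.71% of all windows. The stretches that hold a match read as follows, 5′ to 3′ on the gene's strand, with the match in capitals.
ASNS: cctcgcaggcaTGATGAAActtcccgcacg
CEBPG: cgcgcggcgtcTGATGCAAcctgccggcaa
PPP1R15A: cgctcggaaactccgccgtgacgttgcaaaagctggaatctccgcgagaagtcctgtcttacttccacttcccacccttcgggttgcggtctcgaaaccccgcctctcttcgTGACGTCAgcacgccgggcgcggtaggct
DDIT3: gcgcgcgcaTGACTCAcccacctcctccgt
The ASNS stretch is chr7:97872458-97872487 on the minus strand, -79 to -50 from the RefSeq start, and lies inside the first exon of a longer transcript in GENCODE release 29. The CEBPG stretch is chr19:33374060-33374089 on the plus strand, -53 to -24 from the second of its RefSeq starts. The PPP1R15A stretch is chr19:48872251-48872391 on the plus strand, -170 to -30, and the DDIT3 stretch is chr12:57520735-57520764 on the minus strand, 30 bases that begin at -250. The CEBPG and DDIT3 stretches lie inside the bounds of these genes in GENCODE release 29, with 0 bases in their exons. A match describes the letters of the window and was not tied to binding of any factor. DDIT3, with the largest rise under both compounds, and CEBPG, with one of the smallest, each carried a match, but of different elements. Sequence more than 250 bases before a start was not searched, so a missing match holds for the windows only.

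CEBPB and CEBPG encode leucine-zipper partners through which ATF4 binds DNA. CEBPB (ENSG00000172216.6, chr20:50190734-50192689, plus strand) had 134, 216 and 272 CPM in KB02, 224, 158 and 186 CPM in KB05 and 72.1, 76 and 79.8 CPM in DMSO. Treated libraries were all above the DMSO ones, but they spread widely, with a coefficient of variation of 33.6% in KB02. CEBPB rose by 1.45 ± 0.28 on the log2 scale with KB02 (adjusted p = 0.00527) and by 1.32 ± 0.28 with KB05 (adjusted p = 0.00974), and its SE was the largest of the 10. Between the compounds its log2 fold change was -0.13 with a 95% interval of -0.77 to 0.52 (adjusted p = 0.754). That value turned on single libraries: it was -0.41 without KB02 replicate 1 (adjusted p = 0.0457) and 0.11 without KB02 replicate 3 (adjusted p = 0.772). The antisense gene CEBPB-AS1, which shares exon bases with CEBPB, was at no more than 2.34 CPM in any library.

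CEBPG (ENSG00000153879.9, chr19:33373330-33382686, plus strand) had the steadier and smaller change. It had 80.9, 76.1 and 78.5 CPM in KB02, 77.7, 74.3 and 79 CPM in KB05 and 59.1, 48.7 and 48.8 CPM in DMSO. Both treated groups covered the same narrow range, above every DMSO library. The log2 fold change was 0.59 ± 0.08 with KB02 (adjusted p = 1.5e-07) and 0.56 ± 0.08 with KB05 (adjusted p = 8.02e-07). Between the compounds it was -0.03 with a 95% interval of -0.18 to 0.13 (adjusted p = 0.81).

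TRIB3, a pseudokinase that binds ATF4 and CHOP and restrains them, had the smallest rise with KB02 of the 9 genes that rose. TRIB3 (ENSG00000101255.11, chr20:362835-397559, plus strand) had 148, 135 and 145 CPM in KB02, 190, 185 and 168 CPM in KB05 and 97.7, 103 and 104 CPM in DMSO. The ranges of the 3 groups were separate, with KB05 highest. Its log2 fold change was 0.50 ± 0.07 with KB02 (adjusted p = 5.3e-07), 0.84 ± 0.07 with KB05 (adjusted p = 5.6e-11) and 0.34 ± 0.07 for KB05 over KB02 (adjusted p = 0.000156).

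PPP1R15A encodes GADD34, which brings protein phosphatase to phosphorylated eIF2 and so closes the loop of the response. PPP1R15A (ENSG00000087074.8, chr19:48872392-48876057, plus strand) had 305, 316 and 330 CPM in KB02, 289, 282 and 297 CPM in KB05 and 59.1, 73 and 72 CPM in DMSO. The treated groups lay close together and far above DMSO. The rise was 2.22 ± 0.08 on the log2 scale with KB02 (4.66-fold, adjusted p = 2.6e-20) and 2.09 ± 0.08 with KB05 (4.26-fold, adjusted p = 1.07e-19). KB05 libraries were all slightly below those of KB02, with a log2 fold change of -0.13 (95% interval -0.28 to 0.02, adjusted p = 0.157). This difference was called without KB02 replicate 1 (-0.21, adjusted p = 0.0435), with library totals alone as the scale (-0.25, adjusted p = 0.00508) and in a fit of only the 2 groups (-0.17, adjusted p = 0.0246).

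ASNS makes asparagine and is a classical ATF4 target induced by amino acid shortage. ASNS (ENSG00000070669.17, chr7:97852118-97872542, minus strand) had 420, 389 and 396 CPM in KB02, 261, 249 and 249 CPM in KB05 and 166, 184 and 203 CPM in DMSO. As for ATF4, KB02 was highest, KB05 in between and DMSO lowest, with no overlap. The log2 fold change was 1.12 ± 0.07 with KB02 (2.18-fold, adjusted p = 5.4e-14) and 0.46 ± 0.07 with KB05 (1.37-fold, adjusted p = 7.02e-06). The log2 fold change of KB05 over KB02 was -0.67 ± 0.07 (adjusted p = 6.17e-09), the lowest of the 10 in that comparison. The processed transcript AC079781.5, which shares exon bases with ASNS on the same strand, was at 15 to 18.5 CPM in KB02, 13.4 to 16.9 CPM in KB05 and 12.3 to 20.8 CPM in DMSO and was not called.

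SESN2 and DDIT4 both encode stress-induced inhibitors of the growth kinase complex mTORC1, yet the compounds ordered them differently. SESN2 (ENSG00000130766.5, chr1:28259527-28282491, plus strand) had 171, 156 and 161 CPM in KB02, 113, 111 and 95.8 CPM in KB05 and 32.5, 31.6 and 32 CPM in DMSO. Its rise was 2.35 ± 0.08 on the log2 scale with KB02 (5.08-fold, adjusted p = 5.62e-21) and 1.73 ± 0.08 with KB05 (3.32-fold, adjusted p = 1.42e-17). All groups were apart, and KB05 was lower than KB02 (log2 fold change -0.61 ± 0.07, adjusted p = 2.76e-08).

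DDIT4 (ENSG00000168209.6, chr10:72273920-72276036, plus strand), which encodes REDD1, had 126, 125 and 131 CPM in KB02, 195, 194 and 176 CPM in KB05 and 32.7, 32.3 and 34 CPM in DMSO. Here KB05 was highest, again with no overlap between groups. The log2 fold change was 1.95 ± 0.07 with KB02 (3.86-fold, adjusted p = 1.45e-19), 2.52 ± 0.07 with KB05 (5.72-fold, adjusted p = 1.94e-22) and 0.57 ± 0.07 for KB05 over KB02 (adjusted p = 3.48e-08). An antisense gene, DDIT4-AS1, shares exon bases with DDIT4 but has no row in the count table, so its level could not be given.

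VLDLR, a receptor for triglyceride-rich lipoproteins, was the exception and the least abundant of the 10. VLDLR (ENSG00000147852.17, chr9:2621834-2660053, plus strand) had 5, 3.69 and 4.71 CPM in KB02, 7.87, 10.1 and 8.74 CPM in KB05 and 8.94, 6.4 and 8.75 CPM in DMSO. These levels rest on 116, 82 and 85 counts in KB02, 151, 156 and 152 in KB05 and 169, 124 and 144 in DMSO. KB02 libraries were below all others, while KB05 and DMSO libraries overlapped. VLDLR fell with KB02, with a log2 fold change of -0.84 ± 0.17 (adjusted p = 9.27e-05). With KB05 the log2 fold change was 0.15 with a 95% interval of -0.18 to 0.47 (adjusted p = 0.496). The test of KB05 against KB02 gave 0.99 ± 0.17 (1.99-fold higher with KB05, adjusted p = 1.27e-05). Its antisense gene VLDLR-AS1 was at no more than 0.72 CPM.

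Set directly against each other at matched dose and time, the 2 compounds, which make 1 pair, split the 10 genes. DDIT3, TRIB3, DDIT4 and VLDLR were higher with KB05 than with KB02, and ATF4, ASNS and SESN2 were lower. PPP1R15A, CEBPB and CEBPG were not called, with the intervals given above. These 7 calls of 10 stand beside 40% of all genes called between the compounds, 21.8% higher and 18.2% lower. The libraries of the compounds did not overlap for 8 of the 10, and among all genes 27.6% lay wholly higher and 22.7% wholly lower with KB05. No difference between the compounds reached 2-fold among the 10, while 4.11% of all genes were called at least 2-fold higher and 5.23% at least 2-fold lower with KB05. The median log2 fold change of the 10 was -0.08, against 0.06 over all genes, and it was 0.04 without KB02 replicate 3. With library totals alone as the scale it was -0.19, against -0.06 over all genes.

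**Figure D2:**
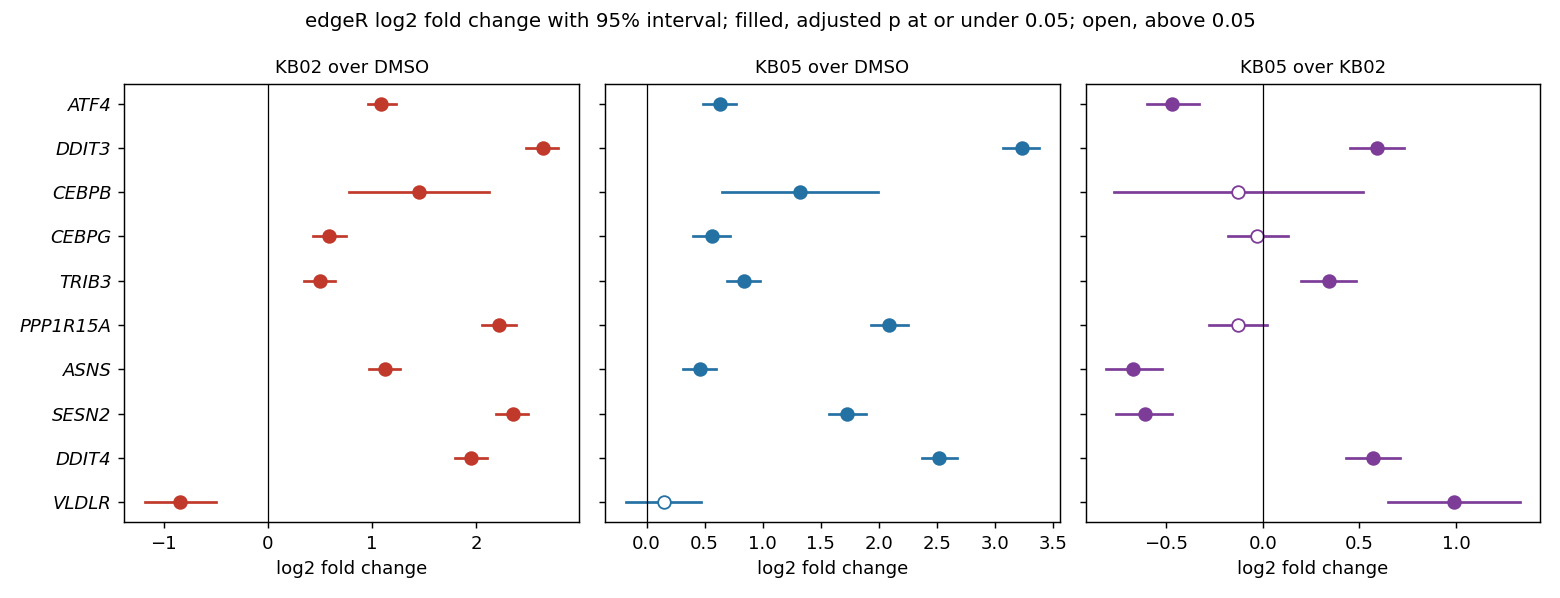
Log2 fold change of the 10 genes from edgeR with its 95% interval, for KB02 over DMSO, KB05 over DMSO and KB05 over KB02, each panel with its own scale. Filled points have an adjusted p at or under 0.05, and open ones lie above it. In the last panel DDIT3, TRIB3, DDIT4 and VLDLR lie to the right of 0 and ATF4, ASNS and SESN2 to the left.

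To compare levels between genes, CPM were divided by the kilobases of exon annotated for each gene in GENCODE release 29. In DMSO cells the order was ATF4 (163 to 177 CPM per kilobase), DDIT3 (46.1 to 47.9), ASNS (37.3 to 45.6), CEBPB (36.9 to 40.8), TRIB3 (28.5 to 30.3), PPP1R15A (19.1 to 23.6), DDIT4 (15.7 to 16.5), CEBPG (11 to 13.4), SESN2 (9.15 to 9.41) and VLDLR (0.685 to 0.957). ASNS and CEBPB were the one pair of neighbours in that order whose libraries overlapped. In KB02 cells ATF4 still led, with 346 to 385 CPM per kilobase, followed by DDIT3 with 277 to 324 CPM per kilobase. In KB05 cells the first places were exchanged, DDIT3 having 428 to 451 and ATF4 259 to 267 CPM per kilobase. The ratio of DDIT3 to ATF4 per kilobase was 0.801, 0.784 and 0.842 in KB02, 1.69, 1.72 and 1.65 in KB05 and 0.293, 0.273 and 0.269 in DMSO. Hence DDIT3 passed ATF4 per exon length in all 3 KB05 libraries and in none of the others. By CPM alone the ratio was 0.408 to 0.437 in KB02, 0.856 to 0.895 in KB05 and 0.14 to 0.152 in DMSO. DDIT3 thus stayed below ATF4 in every library before the division by length, which counts all annotated exon bases and not the transcripts expressed. SESN2, next to last in DMSO, reached 45.2 to 49.5 CPM per kilobase in KB02 and stood above TRIB3 with 39.3 to 43.1, whereas in KB05 it had 27.7 to 32.7 and TRIB3 48.9 to 55.3.

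**Figure D3:**
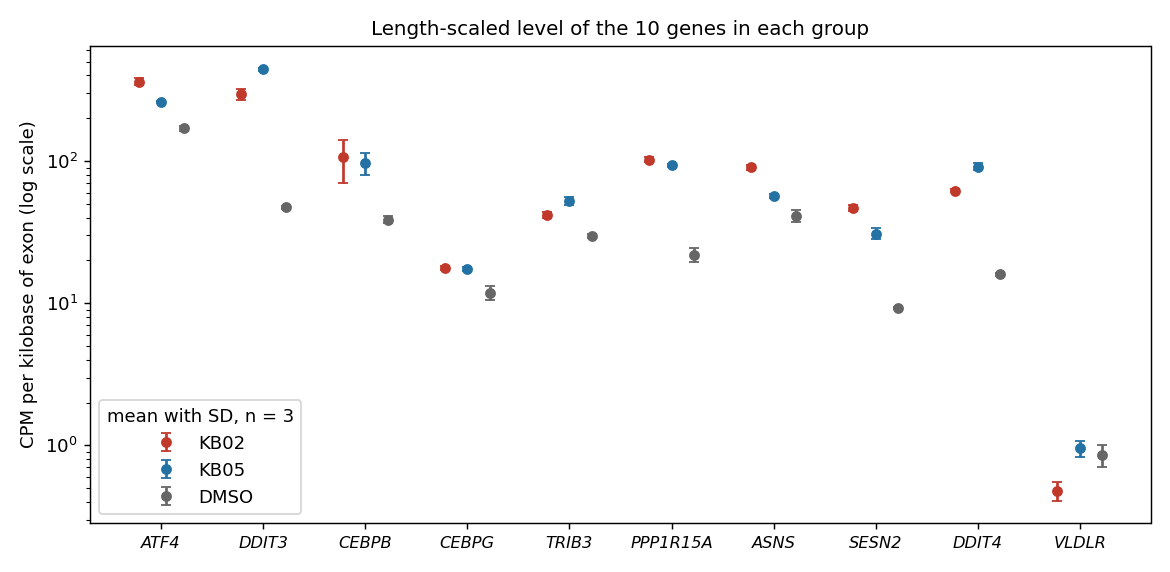
Mean level of the 10 genes in CPM per kilobase of exon on a log axis, with SD over 3 libraries, for KB02, KB05 and DMSO. DDIT3 lies above ATF4 in KB05 only, and VLDLR lies far below the others in every group.

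Several of the 10 genes have paralogs, and 11 of 12 listed ones were measured well enough to test, all except CEBPE, which had 0 to 3 counts a library. Of these 11, 5 rose and 3 fell with KB02 (median log2 fold change 0.09), and 4 rose and 1 fell with KB05 (median 0.14). The KB02 median of so few genes ran from 0.02 without KB02 replicate 3 to 0.32 without KB02 replicate 1. The paralog counts stand beside 22.8% of all genes higher and 23.3% lower with KB02, and 18.7% and 21.1% with KB05. TRIB1, a sister of TRIB3, moved in opposite directions with the compounds. It had 33.7, 24.5 and 31.4 CPM in KB02, 115, 107 and 103 CPM in KB05 and 63.7, 68.4 and 60.6 CPM in DMSO, with no overlap. TRIB1 fell with KB02 (log2 fold change -1.11 ± 0.09, adjusted p = 1.38e-10), rose with KB05 (0.75 ± 0.09, adjusted p = 1.51e-07) and differed between the compounds by 1.86 ± 0.09 (KB05 over KB02, adjusted p = 1.69e-14). The ratio of TRIB3 to TRIB1 per kilobase was thus 5.29, 6.64 and 5.56 in KB02, against 1.99, 2.08 and 1.97 in KB05 and 1.85, 1.81 and 2.07 in DMSO. TRIB2, at 2.43 CPM or less, was not called in any comparison.

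PPP1R15B, the constitutive counterpart of PPP1R15A, rose by 0.48 ± 0.07 with KB02 (adjusted p = 8.66e-07) and had a log2 fold change of -0.03 with KB05 (adjusted p = 0.739). PPP1R15A per kilobase was 3.82, 4.17 and 4.36 times PPP1R15B in KB02, 5.1, 5.24 and 5.77 times in KB05 and 1.01, 1.4 and 1.3 times in DMSO. In CPM alone PPP1R15A was 2.26 to 2.59 times PPP1R15B in KB02 and 3.02 to 3.41 times in KB05. In DMSO it was below PPP1R15B, at 0.599, 0.825 and 0.772 times. Among the sestrins, SESN1 was called in neither comparison with DMSO (log2 fold change 0.05 with KB02, adjusted p = 0.768, and 0.18 with KB05, adjusted p = 0.267). SESN3 rose by 0.52 ± 0.14 with KB02 (adjusted p = 0.00267), and with KB05 its log2 fold change was 0.05 (adjusted p = 0.826). SESN2 per kilobase stood at 27, 23.9 and 23.2 times SESN1 in KB02, 16, 14.7 and 13.8 times in KB05 and 4.95, 5.28 and 4.91 times in DMSO.

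CEBPA, a C/EBP factor of differentiation, rose with both compounds. It had 9.83, 10.1 and 12.3 CPM in KB02, 11.4, 9.1 and 8.56 CPM in KB05 and 3.81, 4.13 and 3.04 CPM in DMSO, and its log2 fold change was 1.54 ± 0.16 with KB02 (adjusted p = 1.6e-09) and 1.40 ± 0.16 with KB05 (adjusted p = 4.21e-08). CEBPD was called higher with KB05 (0.79 ± 0.21, adjusted p = 0.0211), a call that was lost without any one of the DMSO libraries or without KB05 replicate 3 (adjusted p = 0.0511 to 0.0735). LRP8, a receptor of the same family as VLDLR, fell with KB02 (-0.58 ± 0.12, adjusted p = 0.000114). Its fall with KB05 (-0.38 ± 0.12, adjusted p = 0.00967) was not called without DMSO replicate 1 (adjusted p = 0.0587) or without KB05 replicate 2 (adjusted p = 0.0636). DDIT4L, the sister of DDIT4, fell with KB02 (-0.59 ± 0.12, adjusted p = 0.000258) and was at -0.07 with KB05 (adjusted p = 0.667). ATF5, a factor close to ATF4, rose with KB02 (0.36 ± 0.07, adjusted p = 9.28e-05) and had a log2 fold change of 0.12 with KB05 (adjusted p = 0.188).

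**Figure D4:**
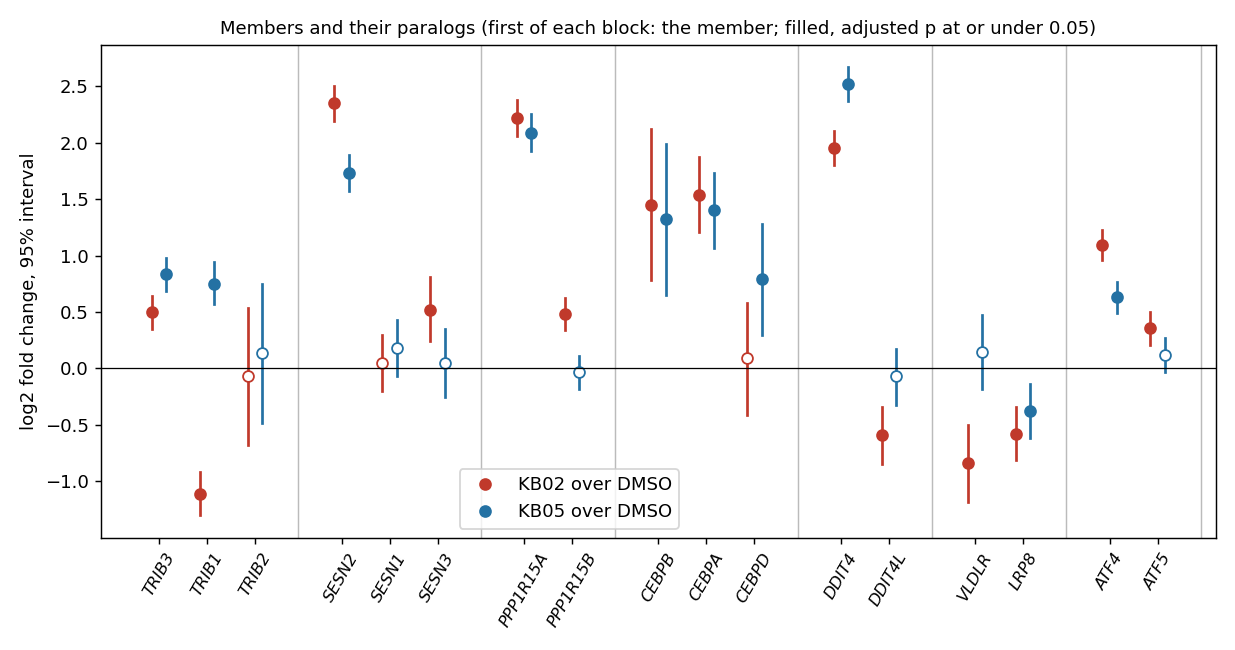
Log2 fold change with 95% interval for KB02 over DMSO and KB05 over DMSO, with one of the 10 genes first in each block and measured paralogs after it. Filled points have an adjusted p at or under 0.05, and open ones lie above it. TRIB1 is below 0 with KB02 and above 0 with KB05, and CEBPA is above 0 with both.

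Genes upstream of ATF4 were called in both directions. Of 20 tested genes for the eIF2 kinases, the subunits of eIF2 and of its exchange factor eIF2B, and the phosphatase and its regulators, 3 rose and 5 fell with KB02 (median log2 fold change -0.04), and 3 rose and 3 fell with KB05 (median -0.05). These 8 and 6 calls of 20 stand beside 46.1% and 39.8% of all genes called. The balance of the KB02 calls and the sign of the KB02 median depend on the scaling, with 6 higher and 3 lower and a median of 0.01 under upper-quartile factors, and the median was 0.02 without DMSO replicate 2. Among the kinases, EIF2AK1, the haem-regulated one, fell with KB02 (-0.24 ± 0.07, adjusted p = 0.00257), and EIF2AK2, EIF2AK3 and EIF2AK4 were called with neither compound. GCN1, a ribosome-bound activator of the amino acid-sensing kinase, had 246, 223 and 237 CPM in KB02, 145, 140 and 139 CPM in KB05 and 228, 245 and 229 CPM in DMSO. It fell with KB05 (-0.73 ± 0.07, adjusted p = 4.63e-10) but was at 0.01 with KB02 (adjusted p = 0.951), and its log2 fold change for KB05 over KB02 was -0.74 ± 0.07 (adjusted p = 2.34e-10). DNAJC3, a chaperone that inhibits the eIF2 kinases, fell with KB02 (-0.70 ± 0.08, adjusted p = 5.26e-09) and with KB05 (-0.53 ± 0.08, adjusted p = 1.69e-06). DELE1, which relays mitochondrial stress to EIF2AK1, fell by 0.55 on the log2 scale with KB02 (adjusted p = 8.07e-06) and by 0.34 with KB05 (adjusted p = 0.0035). EIF2B3 was called lower with KB02 and higher with KB05, at -0.25 ± 0.10 (adjusted p = 0.0328) and 0.31 ± 0.10 (adjusted p = 0.0118). The 3 that rose with KB02 were EIF2B5 (0.54 ± 0.07, adjusted p = 1.48e-07), EIF2S2 (0.41 ± 0.07, adjusted p = 8e-06) and PPP1CC (0.21 ± 0.08, adjusted p = 0.0274). Of these, EIF2S2 also rose with KB05 (0.28 ± 0.07, adjusted p = 0.0013).

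Other ATF4 targets of amino acid supply were split in direction. Of 17 tested, 4 rose and 8 fell with KB02 (median log2 fold change -0.15), and 3 rose and 6 fell with KB05 (median -0.10). The KB02 median was -0.07 without DMSO replicate 2 and -0.01 with library totals alone, which move the median of all genes to 0.13. The KB05 median was -0.04 without DMSO replicate 1, -0.06 without KB05 replicate 1 and -0.05 without KB05 replicate 3. The shares over all genes were 22.8% higher and 23.3% lower with KB02, and 18.7% higher and 21.1% lower with KB05. SLC3A2, the heavy chain shared by several amino acid transporters, had 812, 750 and 816 CPM in KB02, 1510, 1470 and 1500 CPM in KB05 and 602, 656 and 732 CPM in DMSO. It rose by 0.26 ± 0.07 with KB02 (adjusted p = 0.00416) and by 1.17 ± 0.07 with KB05 (adjusted p = 8.54e-14). Its light chain for cystine uptake, SLC7A11, named after its values were seen because its calls had opposite signs, had 66.1, 58.8 and 69.2 CPM in KB02, 27.8, 25.2 and 24.8 CPM in KB05 and 40.8, 34.3 and 32.9 CPM in DMSO. SLC7A11 rose with KB02 (0.84 ± 0.09, adjusted p = 1.38e-09), fell with KB05 (-0.47 ± 0.09, adjusted p = 0.000111) and differed by -1.32 ± 0.09 for KB05 over KB02 (adjusted p = 4.97e-13). CTH, which makes cysteine from cystathionine, rose with both, by 0.60 ± 0.17 with KB02 (adjusted p = 0.00515) and 0.96 ± 0.17 with KB05 (adjusted p = 4.88e-05). ALDH18A1, of proline synthesis, fell with both, by 1.00 on the log2 scale with KB02 (adjusted p = 1.68e-13) and by 0.63 with KB05 (adjusted p = 9.75e-09).

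Of 12 tRNA synthetase genes known to respond to ATF4, 5 rose and 1 fell with KB02 (median log2 fold change 0.07), and 3 rose and 3 fell with KB05 (median -0.03). With library totals alone, 9 were called higher and 0 lower with KB02 (median 0.20), and 4 higher and 2 lower with KB05. The KB02 median was 0.12 without KB02 replicate 1 or replicate 2, and with a library left out the KB05 median ran from -0.07 (without DMSO replicate 1) to -0.00 (without DMSO replicate 3). Between the compounds 1 was higher and 7 were lower with KB05 (median -0.27, against 0.06 over all genes). These counts stand beside 22.8% of all genes higher and 23.3% lower with KB02, and 18.7% and 21.1% with KB05. Between the compounds, 21.8% of all genes were higher and 18.2% lower with KB05. CARS1, for cysteine, had 111, 102 and 115 CPM in KB02, 72.2, 68.8 and 70.4 CPM in KB05 and 62.2, 73.7 and 73.3 CPM in DMSO, and rose with KB02 (0.65 ± 0.07, adjusted p = 1.38e-08). Its log2 fold change with KB05 was 0.02 (adjusted p = 0.894). The test of KB05 against KB02 gave -0.63 ± 0.07 for CARS1 (adjusted p = 3.95e-08). YARS1, for tyrosine, rose by 0.62 ± 0.07 with KB02 (adjusted p = 3.41e-09) and by 0.24 ± 0.07 with KB05 (adjusted p = 0.00517). TARS1, for threonine, rose by 0.53 ± 0.07 with KB02 (adjusted p = 1.02e-07) and 0.45 ± 0.07 with KB05 (adjusted p = 3.06e-06).

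Most stress effectors downstream of ATF4 and CHOP rose. Of 15 tested, 10 rose and 3 fell with KB02 (median log2 fold change 0.43), and 9 rose and 1 fell with KB05 (median 0.40). ERO1A, named after its values were seen, was the gene that fell with both. Its log2 fold change was -0.93 ± 0.08 with KB02 (adjusted p = 4.7e-11) and -0.39 ± 0.08 with KB05 (adjusted p = 0.000221). Between the compounds 10 of the 15 were higher and 3 lower with KB05. Over all genes, 22.8% rose and 23.3% fell with KB02, and 18.7% rose and 21.1% fell with KB05. With KB05 against KB02, 21.8% of all genes were higher and 18.2% lower. BBC3, which encodes the pro-apoptotic protein PUMA, had 68.7, 71.7 and 97.9 CPM in KB02, 121, 107 and 110 CPM in KB05 and 33.1, 37.7 and 39.8 CPM in DMSO, and rose by 1.11 ± 0.13 with KB02 (adjusted p = 2.3e-05) and 1.61 ± 0.13 with KB05 (adjusted p = 1.56e-06). ATF3 and CHAC1 had the largest rises of this list, each called and more than 2-fold above DMSO with either compound. ATF3, a stress-induced factor of the ATF family, differed between the compounds by 0.69 ± 0.07 (KB05 over KB02, adjusted p = 1.57e-09). CHAC1, which degrades glutathione, gave 0.13 in that comparison, with a 95% interval of -0.06 to 0.32 (adjusted p = 0.268). KLHL24, named after its values were seen, was the gene of this list with the lowest KB05 over KB02 value. It had 54.1, 46 and 51.6 CPM in KB02, 16.4, 19 and 17.1 CPM in KB05 and 18.6, 15.3 and 16.7 CPM in DMSO. KLHL24 rose with KB02 (1.58 ± 0.09, adjusted p = 1.09e-14), was at 0.05 with KB05 (adjusted p = 0.724) and differed by -1.53 ± 0.10 for KB05 over KB02 (adjusted p = 6.52e-14).

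The ATF6 and XBP1 branch of the unfolded protein response, which raises chaperones of the endoplasmic reticulum, went the other way. Of 17 tested genes, 1 rose and 14 fell with KB02 (median log2 fold change -0.73), and 1 rose and 11 fell with KB05 (median -0.32). The shares of all genes called were 22.8% higher and 23.3% lower with KB02, and 18.7% and 21.1% with KB05. HSPA5, the chaperone BiP, had 1040, 996 and 1020 CPM in KB02, 1500, 1400 and 1280 CPM in KB05 and 2100, 2330 and 2460 CPM in DMSO. It fell by 1.17 on the log2 scale with KB02 (adjusted p = 3.62e-14) and by 0.72 with KB05 (adjusted p = 3.72e-09). PDIA6, a protein disulfide isomerase, fell by 1.25 with KB02 (adjusted p = 6.53e-15) and by 0.38 with KB05 (adjusted p = 9.84e-05). DNAJB9, a co-chaperone of BiP, was the gene that rose, by 1.21 ± 0.10 with KB02 (adjusted p = 1.91e-11) and 1.09 ± 0.10 with KB05 (adjusted p = 7.2e-10). Between the compounds 12 of the 17 were higher with KB05 than with KB02 and none was lower, and with library totals alone 12 were higher and 2 lower. With TMM, 21.8% of all genes were called higher and 18.2% lower in that comparison.

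**Figure D5:**
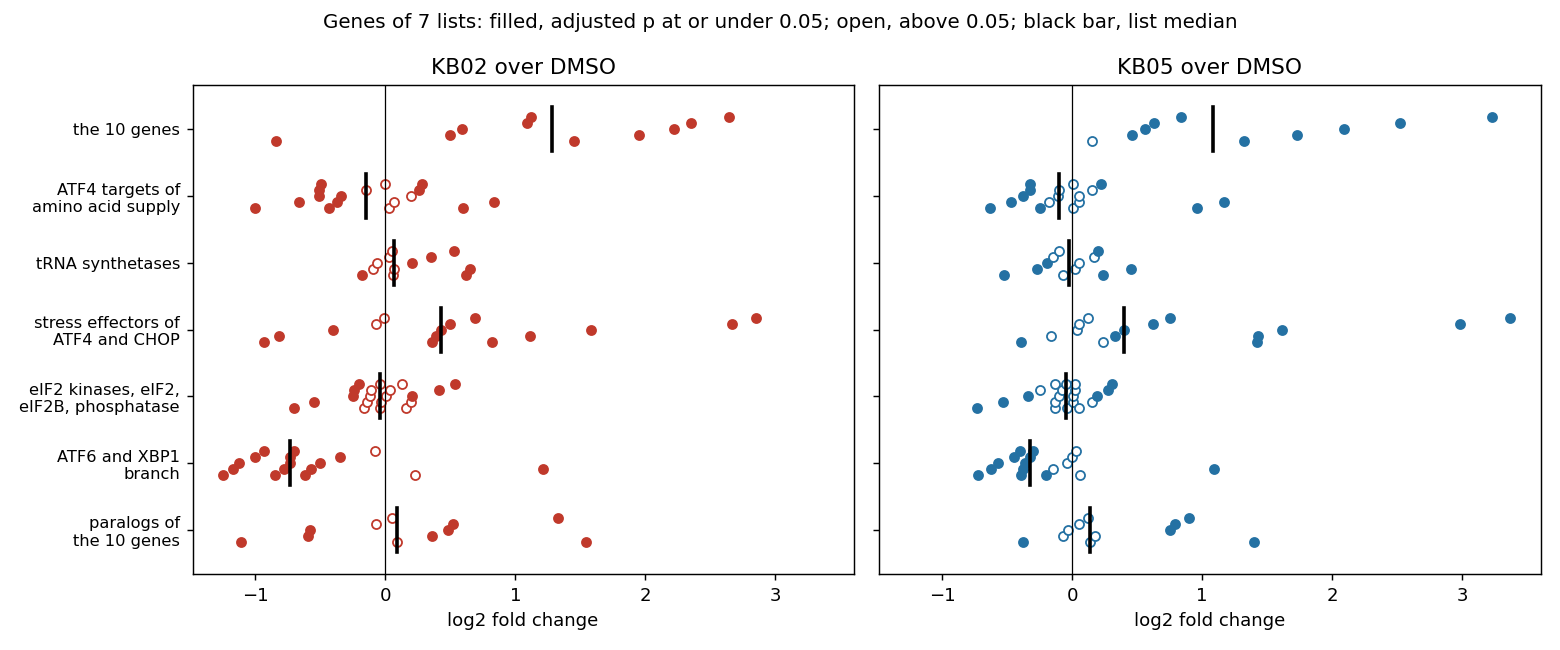
Log2 fold change of every tested gene in 7 lists for KB02 over DMSO and KB05 over DMSO, 1 point a gene and a black bar at the list's median. Filled points have an adjusted p at or under 0.05, and open ones lie above it. The 10 genes lie mostly to the right of 0, the ATF6 and XBP1 branch mostly to the left, and the other lists on both sides.

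The patterns of ATF4 and DDIT3 over the 9 libraries had different nearest genes among 13086 candidates. By Pearson correlation of log2 CPM, ATF4 was most like ZFHX2, MAP1LC3B and SAPCD2 (r = 0.99 each) and FAM53B and SPATA2 (r = 0.989 each). MAP1LC3B had 110, 113 and 114 CPM in KB02, 85.7, 81.5 and 79.4 CPM in KB05 and 54.9, 53.3 and 50.8 CPM in DMSO, the same order of groups as ATF4. DDIT3 was most like JUN, JUNB and ATF3 (r = 0.999 each), DDIT4 (r = 0.998) and EGR1 (r = 0.997). JUN had 714, 721 and 777 CPM in KB02, 1130, 1170 and 1070 CPM in KB05 and 70.2, 75.3 and 74.2 CPM in DMSO, with KB05 highest as for DDIT3. Within the 10 genes, ATF4 was closest to SESN2 (r = 0.975) and ASNS (r = 0.97), and r between ATF4 and DDIT3 was 0.817. These values describe libraries that share 3 groups, so they carry mostly the differences between group means.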

How the data were processed

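Per the submitters' processing notes, reads were processed with Salmon 1.3.0 and DESeq2 1.30.1, with hg38 and GRCh38.p13 named as builds. The annotation release, the strand setting and the RNA selection were not given in the sources used. The authors deposited Salmon's estimated counts per gene, unscaled, which divide reads of overlapping genes and close paralogs by estimate. Fractional values (20.3% to 24.3% of a library) were rounded to whole numbers. Identifiers received symbols from a name table (60064 of 60232 matched, 41714 with a symbol). Positions and exon lengths are from GENCODE release 29 (GRCh38), promoters from RefSeq (GRCh38.p14).

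Counts were tested in R 4.3.3 with edgeR 4.0.16: filterByExpr with a minimum count of 10 (18379 genes kept), TMM factors, a robust quasi-likelihood fit of 9 libraries in 3 groups without a block, and contrasts with p-values adjusted by Benjamini-Hochberg across the tested genes (threshold 0.05). The SE is the absolute log2 fold change over the square root of F, and intervals are at 95%. The fit was tested on simulated data. Replicates differed by a chi-square per degree of freedom of 4.28 to 9.75, so no pair agreed within sampling noise. A floor of 3 counts covers counting error only. Alternatives were DESeq2 1.42.0, other scalings, no filter, a replicate block, a fit of 2 groups and each library left out.

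The 10 genes and the lists were chosen with earlier results of these data known. From each other pathway list the text names up to 3 called genes with the largest change against DMSO (mean log2 CPM 1 or more), and the measured paralogs except 1, which is counted but not reported here. For ATF4 and DDIT3 it names the 5 genes with the highest correlation. EIF2AK1 to EIF2AK4, EIF2B3, EIF2B5, EIF2S2, PPP1CC, SLC7A11, KLHL24, ERO1A and the named markers of other cells were added after their values were seen. The other 15 of the 24 samples, collected at 8 h, were not analysed here.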

Additional observations from a re-analysis of the deposited data

How the results depend on the processing

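Over the 10 genes, 3 comparisons and 16 alternatives, 474 of 480 values kept their direction and their side of the threshold. The exceptions all lie in KB05 against KB02. PPP1R15A was called under 3 alternatives and CEBPB under 1, as given above, and with a library left out CEBPB ranged from -0.41 to 0.11 (positive without KB02 replicate 3) and CEBPG from -0.10 to 0.00 (highest without KB05 replicate 2). Scaling by library totals alone moved the median log2 fold change of all genes with KB02 to 0.13, and genes were then called 5733 higher and 3254 lower, against 4191 and 4279 with TMM. For KB05 against KB02 that scaling gave 2695 higher and 4518 lower, against 3998 and 3348. The cause was not tested.

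Pairing of the libraries by replicate number was weak at most. Same-number correlations were -0.041 to 0.081, and different-number ones -0.066 to 0.039. With a replicate block, 8600 genes were called with KB02, 7476 with KB05 and 7518 between the compounds, against 8470, 7321 and 7346 without, and the calls of the 10 genes were 10, 9 and 7 as before. CEBPD lost its calls under the block (0.79, adjusted p = 0.0696, with KB05, and 0.71, adjusted p = 0.0895, between the compounds). Its call between the compounds was also lost with library totals alone (adjusted p = 0.0526) and in a fit of the 2 groups (adjusted p = 0.114). The same held without any one DMSO library, KB02 replicate 2, KB05 replicate 1 or KB05 replicate 3 (adjusted p = 0.0543 to 0.081).

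Values that were not called changed sign in these cases, given as ranges over the libraries left out in turn. With KB02 they were GCN1 (-0.02 to 0.09, and -0.01 without the count filter), CEBPD (-0.06 to 0.32) and TRIB2 (-0.19 to 0.24, and 0.07 with library totals alone). With KB05 they were CARS1 (-0.06 to 0.06, and -0.00 with RLE factors), SESN3 (-0.04 to 0.18), TRIB2 (-0.02 to 0.45), PPP1R15B (-0.07 to 0.00), DDIT4L (-0.16 to 0.07) and KLHL24 (-0.02 to 0.13). CEBPD with KB02 was called without KB02 replicate 1 (0.32, adjusted p = 0.0208). Counts of called genes that moved by over 1.5 times were those of the paralogs with KB05 (3 without DMSO replicate 1, against 5), the eIF2 group between the compounds (3 without KB05 replicate 2, against 5) and the markers of other cells between the compounds (4 with library totals alone, 1 without KB02 replicate 3 or KB05 replicate 1, against 2). SESN3, called between the compounds at -0.48, was at -0.34 (adjusted p = 0.0785) without KB05 replicate 3, and BBC3 (0.51) was at 0.47 (adjusted p = 0.0552) in a fit of the 2 groups. Of the 10 genes VLDLR has the fewest counts, 82 to 169 a library.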
